A study of Mus musculus with 6 samples.

Results

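This account covers 10 genes that mark an activated antigen-presenting cell: the T cell costimulatory and coinhibitory ligands Cd80, Cd86, Cd274, Icosl and Tnfsf9, the receptor Cd40, the surface activation markers Cd83 and Cd69, and the adhesion molecules Icam1 and Cd44. They were chosen by name, and all 10 were found among the 55536 annotated genes of the files, through 38 of 141862 annotated transcripts. The cells were RAW264.7, a mouse macrophage line labelled with a C57BL/6 background. One group of 3 libraries came from RAW264.7 cells given titanium (Ti) particles and the other, called Ctrl, came from RAW264.7 cells given phosphate-buffered saline (PBS), 6 libraries of total RNA in all. The sources used here do not state the particle dose or how long the cells were exposed. The labels do not say whether the libraries of a group were separate cultures, and p-values therefore measure only the spread between these libraries, which may be technical.

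A macrophage that senses danger displays peptide on its surface together with ligands that tell a T cell how to respond. CD80 and CD86 bind CD28 to stimulate and CTLA-4 to restrain, PD-L1 (encoded by Cd274) restrains through PD-1, ICOS ligand (Icosl) and 4-1BB ligand (Tnfsf9) stimulate through ICOS and 4-1BB, and CD40 receives the CD40 ligand signal that licenses the presenting cell. ICAM-1 holds the contact together through LFA-1, and CD44 binds hyaluronan. Many of these genes are induced in macrophages by NF-kB and by interferons.

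Annotated transcripts summed to between 37686020 and 48543436 rescaled counts in the Ti libraries and to between 41164142 and 60242937 in the Ctrl libraries, where a rescaled count is the authors' estimated count per transcript multiplied by exon length over genomic span. Levels are given as CPM, rescaled counts per 1000000 of the TMM-scaled library size. A count of 3, taken as the lowest detectable, was 0.0498 to 0.0796 CPM without that scaling and covers counting error only. The 9 macrophage markers examined were Cd68, Adgre1, Csf1r, Lyz2, Itgam, Fcgr1, Mertk, Spi1 and Cd14. They summed to 6698 to 8511 CPM in the Ti libraries and to 5357 to 7152 CPM in the Ctrl libraries. Lyz2, at 3745 to 5363 CPM, made up most of each sum, and Mertk, at most 6 counts, was too low to test. Single markers could be uneven. Csf1r had 1387, 144 and 435 CPM in Ti replicates 1, 2 and 3, and 472, 1462 and 1598 CPM in Ctrl replicates 1, 2 and 3. Itgam had 11.9 to 112 CPM with Ti and 29.9 to 60.5 CPM in Ctrl. The 5 T cell markers summed to at most 0.0536 CPM in any Ti library and 0.0938 CPM in any Ctrl library, with Cd8a at 0 in all. The 4 B cell markers were at 0 except for 2 counts of Cd79b in 1 Ctrl library. The 3 fibroblast markers were at or below 2 counts in every library. Of the 3 endothelial markers Tek was at 0, and the list summed to 0.107 to 0.541 CPM with Ti and 0.0959 to 0.188 CPM in Ctrl. The 5 dendritic cell markers summed to 1.66 to 2.51 CPM in the Ti libraries, above the 0.216 to 1.41 CPM of the Ctrl libraries. In replicates 1, 2 and 3 Zbtb46 had 2.12, 1.07 and 1.12 CPM with Ti and 1.09, 0.574 and 0 CPM in Ctrl. Its log2 fold change was 1.35 ± 1.11 (SE), and that of Xcr1 was 0.57 ± 0.36 (edgeR adjusted p = 0.913 and 0.853). Clec9a was at 0, 7 and 24 counts in Ti replicates 1, 2 and 3 and at 0 in Ctrl. Ccr7 was at 0 everywhere and Flt3 at 0 in 5 of 6 libraries. The part of these markers in the results was not tested.

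The comparison of Ti with Ctrl asked which of these surface molecules differed after exposure to the particles. None of the 10 genes passed an edgeR adjusted p of 0.05 over the 15376 genes tested, where 0.013% of all genes were called higher with Ti and 0.013% lower, 0.026% in either direction. Voom with quality weights likewise called none, against 0.0325% of all genes higher and 0.0325% lower. On simulated data edgeR recovered 3.33% of 2-fold changes and 41.7% of 4-fold changes, and voom 3% and 41.7%. The absence of a call therefore does not show that a member was unchanged. In total RNA of a culture, fewer cells of a kind and less RNA per cell cannot be told apart. The clearest separations were in Cd274, with a log2 fold change of 0.92, and in the scarce Cd69. In both, all 3 Ti libraries lay above all 3 Ctrl libraries, but Cd69 entered the test through its Ti libraries alone, which fixes its direction. Of the other 9 members 1, Cd274, separated in this way and 0 had all 3 Ti libraries below, where 6.63% of all genes tested had all Ti libraries above and 6.71% below. These 9 had 6 positive and 3 negative log2 fold changes with a median of 0.17, and all 10 had 7 positive with a median of 0.28, beside 50.9% positive and a median of 0.01 over all genes tested. The median of the members was 0.12 with a mean of at least 50 counts and 0.10 on protein-coding transcripts alone, with 8 members left in each case. At an unadjusted edgeR p of 0.05, 1 of the 9 stood higher with Ti and 0 lower, beside 3.42% and 3.34% of all genes. Cd40, at a log2 fold change of 1.21, was uneven among libraries.

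**Figure D1:**
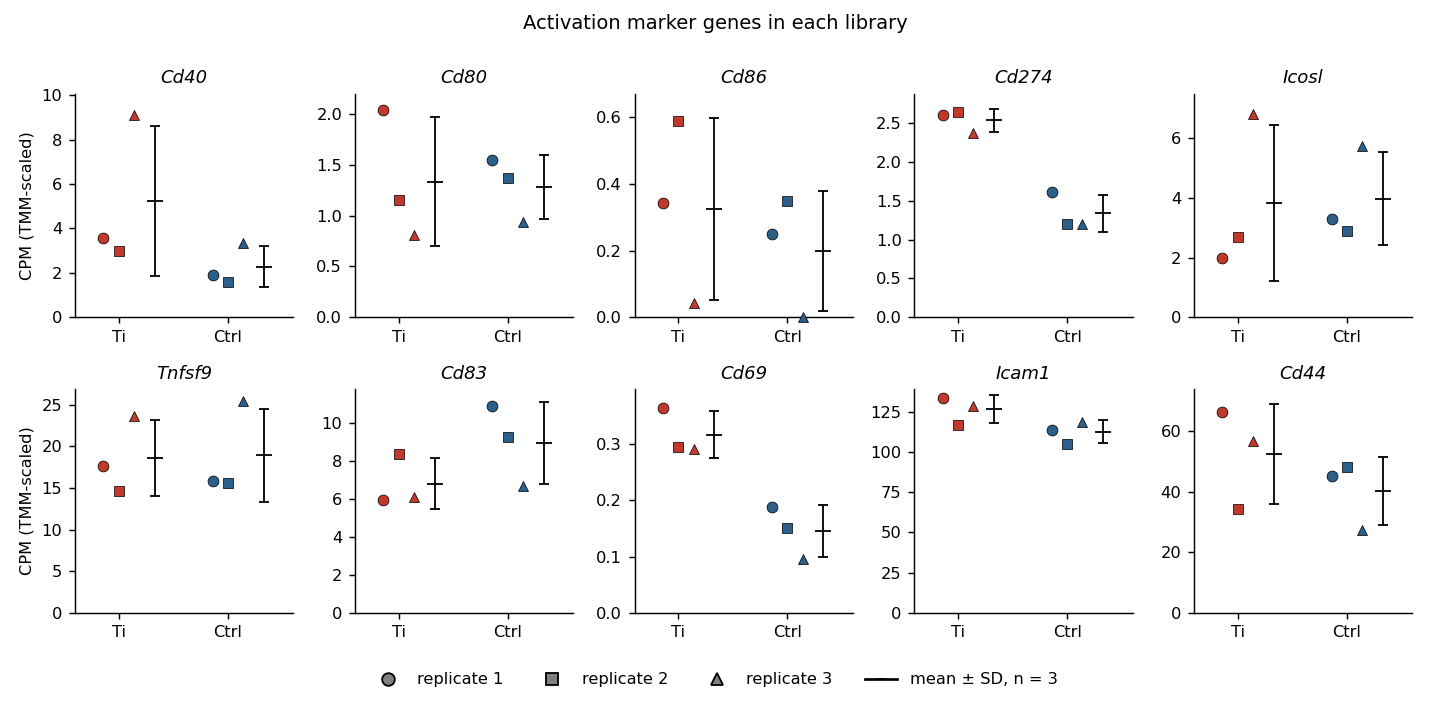
CPM of each of the 10 genes in every library, with Ti on the left and Ctrl on the right of each panel; symbols mark the replicate number and the bar is the mean ± SD (n = 3). Cd274 and Cd69 are the panels without overlap between the groups, and replicate 3 is the highest library of both groups for Cd40, Icosl and Tnfsf9.

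Cd274 (ENSMUSG00000016496, GRCm38 chromosome 19, 29367455 to 29388095, plus strand) encodes the coinhibitory ligand PD-L1. It had 2.60, 2.65 and 2.37 CPM in Ti replicates 1, 2 and 3, and 1.61, 1.20 and 1.20 CPM in Ctrl replicates 1, 2 and 3. The lowest Ti library was thus above the highest Ctrl library, and the Ti libraries lay close together. The mean was 2.54 ± 0.149 CPM with Ti and 1.34 ± 0.238 CPM in Ctrl (SD, n = 3 each), a log2 fold change of 0.92 ± 0.23 (SE; edgeR unadjusted p = 0.00738, adjusted p = 0.452). DESeq2, run as an alternative, called it (adjusted p = 0.0294); that tool called 1.07% of the genes it tested higher with Ti and 0.844% lower, and no other member. On simulated data 40.2% of the DESeq2 calls were false, against 7.53% of the edgeR calls and 8.22% of the voom calls. The 3 simulations drew their noise from edgeR's dispersion estimates. The share of false calls depends on how many genes were set to change, and that number is not known for the real libraries. DESeq2 also recovered more of the simulated 2-fold changes, 23.7%. Across the 16 alternatives the fold change stayed between 0.85 and 1.08, with adjusted p from 0.0294 to 0.857. Its 1 annotated transcript is protein coding, so no choice among annotated isoforms enters the value. Whether any assembled transcript without a gene belongs to Cd274 is not known.

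Cd274 and Icam1 are the members whose promoters are shown, the first for its separation and the second for its level, as the 250 bases before the RefSeq start on GRCm38.p6, both on the plus strand. Capitals mark matches, on either strand, to any of 4 motifs: strict kappaB (GGG, any 2 bases, TTTCC), loose kappaB (GGNNNTTCC), AP-1 (TGANTCA) and an interferon-response pair (GAAA, any 2 bases, GAAA). A strict kappaB match also holds a loose one.
Cd274, chr19:29367188-29367437: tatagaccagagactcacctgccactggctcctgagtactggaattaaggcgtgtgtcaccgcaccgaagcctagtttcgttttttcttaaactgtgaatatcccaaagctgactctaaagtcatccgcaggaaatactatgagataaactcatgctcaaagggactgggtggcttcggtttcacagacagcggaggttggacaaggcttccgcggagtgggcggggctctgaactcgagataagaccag
Icam1, chr9:21015690-21015939: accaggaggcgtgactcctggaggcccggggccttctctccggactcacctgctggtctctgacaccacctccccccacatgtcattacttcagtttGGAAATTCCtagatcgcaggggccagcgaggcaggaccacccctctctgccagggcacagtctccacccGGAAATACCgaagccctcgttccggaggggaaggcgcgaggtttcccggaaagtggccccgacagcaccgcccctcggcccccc
The Icam1 window holds GGAAATTCC at -153 and GGAAATACC at -84 relative to the start, both matches to the loose kappaB letters. The Cd274 window holds none of the 4, which says only that these letters are not in it. Of 32851 promoter windows of the same length in the table, 15.7% hold the loose kappaB letters, 6.75% the AP-1 letters, 2.98% the interferon-response pair and 1.41% the strict kappaB letters. Promoters of 5 of the 10 members were in the table; Cd80 held GGAACCACC and the AP-1 match TGATTCA, at -209 and -42, and Icosl and Cd44 held none of the 4.

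The B7 ligands that stimulate through CD28 were scarce. Cd80 (ENSMUSG00000075122, chromosome 16, 38455561 to 38496335, plus strand) had 2.04, 1.15 and 0.811 CPM in Ti replicates 1, 2 and 3, and 1.55, 1.37 and 0.935 CPM in Ctrl replicates 1, 2 and 3. The groups overlapped, and in each group replicate 1 was the highest and replicate 3 the lowest. The log2 fold change was 0.05 ± 0.42 (edgeR adjusted p = 0.998), and its direction turned in 4 of 16 alternatives, from -0.39 without Ti replicate 1 to 0.31 without Ti replicate 3. Cd86 (ENSMUSG00000022901, chromosome 16, 36603869 to 36666081, minus strand) stood at 16, 22 and 2 counts in Ti replicates 1, 2 and 3, and at 16, 14 and 0 counts in Ctrl replicates 1, 2 and 3. Its libraries numbered 3 were at or under the lowest detectable count. In the other 4 libraries most of its rescaled counts came from the non-coding processed transcript Cd86-203 (62.2% to 88.4%). That share depends on the rescaling. Before it, Cd86-203 was at 73 in Ti replicate 2 and 57 in Ctrl replicate 2, below the 200 and 98 of the protein-coding Cd86-201. In replicate 1 it was at 67 with Ti and 76 in Ctrl, beside 130 and 62 for the non-coding Cd86-202. The protein-coding transcript Cd86-201 was at 0, 8.16 and 2.04 rescaled counts in the Ti libraries and at 0, 4.0 and 0 in the Ctrl libraries. The fitted log2 fold change of 0.66 ± 1.20 had an error larger than itself, so no difference in Cd86 was detectable at this depth.

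Icosl (ENSMUSG00000000732, chromosome 10, 78069302 to 78083913, plus strand) encodes the ligand of ICOS. It had 1.97, 2.68 and 6.82 CPM in Ti replicates 1, 2 and 3, and 3.30, 2.89 and 5.75 CPM in Ctrl replicates 1, 2 and 3. Replicate 3 was the highest library of both groups, and the groups overlapped throughout. The log2 fold change was -0.06 ± 0.54 (edgeR adjusted p = 0.998), with values from -0.77 without Ti replicate 3 to 0.31 without Ctrl replicate 3. On protein-coding transcripts alone it was -0.37. Icosl-204, annotated as a retained-intron transcript, held 24.7% to 65.5% of the gene's counts in the Ti libraries and 35.9% to 50.2% in the Ctrl libraries.

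Cd40 and Tnfsf9 belong to the TNF receptor and TNF ligand families. Cd40 (ENSMUSG00000017652, chromosome 2, 165055627 to 165072948, plus strand) encodes the receptor of CD40 ligand. It had 3.58, 2.97 and 9.13 CPM in Ti replicates 1, 2 and 3, and 1.88, 1.6 and 3.33 CPM in Ctrl replicates 1, 2 and 3. Each Ti library was above the Ctrl library of the same number, by 0.93, 0.90 and 1.45 on the log2 scale for numbers 1, 2 and 3, while Ti replicate 2 was below Ctrl replicate 3, so the groups overlapped. The log2 fold change was 1.21 ± 0.53 (edgeR unadjusted p = 0.0623, adjusted p = 0.761). In the fit blocked on replicate number it was 1.10 (edgeR unadjusted p = 0.00677, adjusted p = 0.387), which did not pass over all genes either. Without Ti replicate 3 the value was 0.54, and with each of the other 5 libraries left out in turn it was 1.01 to 1.59.

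Part of the Cd40 value sat on a transcript other than the full-length one. Throughout, the split of a gene among its transcripts rests on the authors' estimated counts and on the rescaling applied here. The factor of exon length over span differs between transcripts of a gene, so shares of the deposited values differ from the shares given. In Ti replicate 3 the deposited values were 2838 for Cd40-207 and 1106 for Cd40-201. Cd40-207 (ENSMUST00000184221), in the nonsense-mediated decay class of the annotation, stood at 60.89, 0 and 197.03 rescaled counts in Ti replicates 1, 2 and 3, and at 0, 2.15 and 43.81 in Ctrl replicates 1, 2 and 3. It was abundant in Ti replicates 1 and 3 and Ctrl replicate 3, and at or under the lowest detectable count in the other 3 libraries. It keeps the 101-base intron between exons 7 and 8 of the full-length Cd40-201. The full-length Cd40-201 was at 56.89, 84.64 and 190.65 rescaled counts with Ti and at 85.50, 43.10 and 78.78 in Ctrl. Over the 4 protein-coding transcripts Cd40 averaged 2.92 ± 1.32 CPM with Ti and 1.57 ± 0.376 CPM in Ctrl, and the log2 fold change on those alone was 0.91.

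Cd83 (ENSMUSG00000015396, chromosome 13, 43784775 to 43803132, plus strand), which encodes a surface protein of mature dendritic cells and activated lymphocytes, had most of its counts on a retained-intron transcript. Its 2 annotated transcripts share the last 3 introns, and Cd83-202 (ENSMUST00000221359) keeps the first one, of 95 bases. That transcript held 89.1%, 90.9% and 89.7% of the gene's counts in Ti replicates 1, 2 and 3, and 92.8%, 98.5% and 77.4% in Ctrl replicates 1, 2 and 3. The retained introns of both genes are shown because they separate these transcripts from the coding ones. They are in capitals between the last 15 and the first 15 bases of the flanking exons, from GENCODE M21 transcripts on GRCm38, plus strand, and the coordinates are those of the introns.
Cd40-207, chr2:165069716-165069816: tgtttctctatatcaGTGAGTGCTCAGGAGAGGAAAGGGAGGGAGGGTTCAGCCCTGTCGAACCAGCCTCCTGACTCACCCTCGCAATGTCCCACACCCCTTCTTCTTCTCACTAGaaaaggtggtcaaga
Cd83-202, chr13:43785251-43785345: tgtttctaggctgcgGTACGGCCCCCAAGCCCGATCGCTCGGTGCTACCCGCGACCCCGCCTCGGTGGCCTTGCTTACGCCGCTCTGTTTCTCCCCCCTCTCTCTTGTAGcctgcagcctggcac
Both begin with GT and end with AG, the usual splice site letters.

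Cd83 had 5.92, 8.36 and 6.11 CPM in Ti replicates 1, 2 and 3, and 10.9, 9.25 and 6.66 CPM in Ctrl replicates 1, 2 and 3. Every Ti library was below the Ctrl library of the same number, by little for numbers 2 and 3, and the groups overlapped through Ctrl replicate 3. The log2 fold change was -0.40 ± 0.26 (edgeR unadjusted p = 0.171, adjusted p = 0.862), negative in all 16 alternatives, from -0.57 to -0.23. The coding transcript alone averaged 0.679 ± 0.0727 CPM with Ti and 0.806 ± 0.682 CPM in Ctrl.

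**Figure D2:**
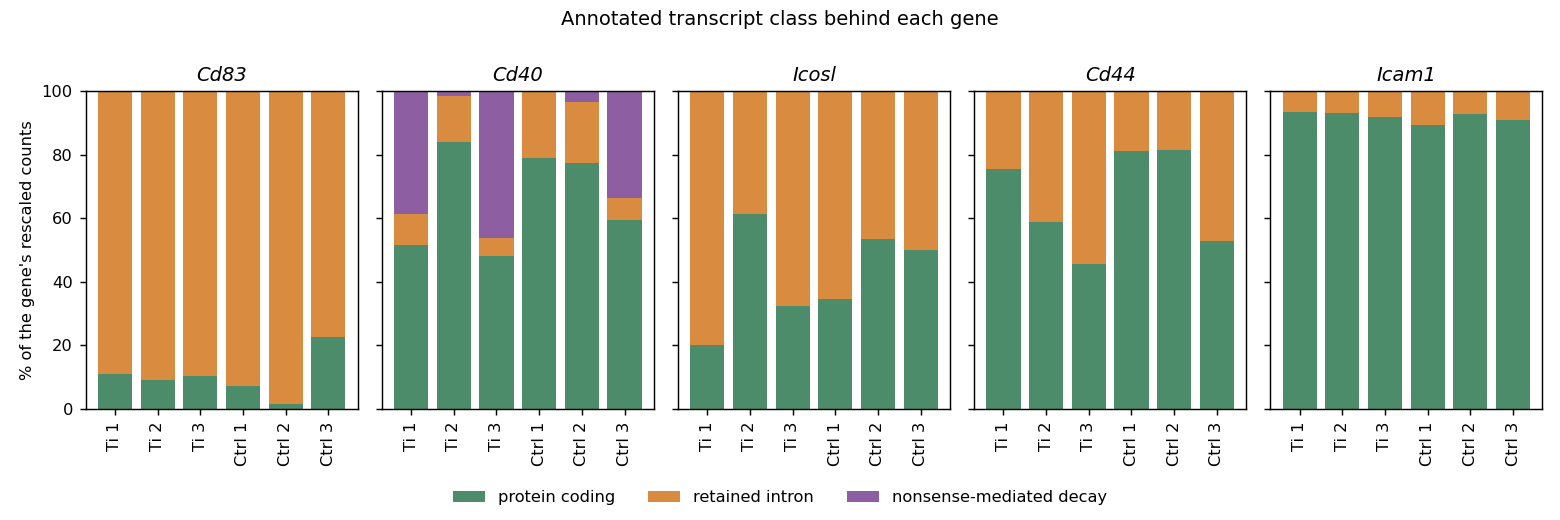
Share of each gene's rescaled counts, in percent, on protein-coding, retained-intron and nonsense-mediated-decay transcripts in the 6 libraries, for 5 members with more than 1 of these classes; the scarce Cd69 is not drawn. Retained-intron transcripts make up 77.4% to 98.5% of Cd83 and at most 10.5% of Icam1.

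Tnfsf9 (ENSMUSG00000035678, chromosome 17, 57105325 to 57107757, plus strand) encodes 4-1BB ligand. It had 17.7, 14.6 and 23.6 CPM in Ti replicates 1, 2 and 3, and 15.8, 15.6 and 25.4 CPM in Ctrl replicates 1, 2 and 3. The groups covered almost the same range, with replicate 3 the highest in both. Its log2 fold change was -0.02 ± 0.28 (edgeR adjusted p = 0.998). The non-coding gene Gm11110, on the opposite strand of the same stretch, had 0.125 to 3.21 CPM with Ti and 2.09 to 2.49 CPM in Ctrl, and whether the counting used strand is not given in the sources used here, so reads of the overlap cannot be told apart.

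Cd69 (ENSMUSG00000030156, chromosome 6, 129267325 to 129275436, minus strand), an early activation marker that retains lymphocytes in tissue, was close to the detection limit. It stood at 17, 11 and 14 counts in Ti replicates 1, 2 and 3, and at 12, 6 and 4 counts in Ctrl replicates 1, 2 and 3. In CPM the Ti libraries, 0.291 to 0.365, were above the Ctrl libraries, 0.0959 to 0.188. It reached the level required by the low-count filter in 3 Ti libraries and in 0 Ctrl libraries, so it entered the test through the Ti group alone and its log2 fold change of 1.10 ± 0.38 (edgeR unadjusted p = 0.0270, adjusted p = 0.649) is a description. In 3 of the 6 libraries 65.4% to 100% of these rescaled counts came from Cd69-204, an unspliced retained-intron transcript of 4968 bases. The rescaling leaves Cd69-204 unreduced, since its exon length equals its span. In the deposited values the protein-coding Cd69-201 was at 28 and 15 in Ti replicates 1 and 2, above the 11 and 8 of Cd69-204. In Ctrl replicate 2 Cd69-201 was at 0 and Cd69-204 at 6.

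The adhesion molecules had the highest CPM of the 10 genes, a scale that does not correct for length. Icam1 (ENSMUSG00000037405, chromosome 9, 21015985 to 21028817, plus strand) had 134, 117 and 129 CPM in Ti replicates 1, 2 and 3, and 114, 105 and 119 CPM in Ctrl replicates 1, 2 and 3. The groups overlapped narrowly, since Ti replicate 2 was below Ctrl replicate 3, and each Ti library was above the Ctrl library of the same number. Its log2 fold change was 0.17 ± 0.10 (edgeR unadjusted p = 0.143, adjusted p = 0.846), positive in all 16 alternatives, from 0.12 to 0.22. Icam1 thus had the smallest standard error of the 10 genes.

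Cd44 (ENSMUSG00000005087, chromosome 2, 102811141 to 102901665, minus strand) had 66.3, 34.3 and 56.6 CPM in Ti replicates 1, 2 and 3, and 45.1, 48.2 and 27.5 CPM in Ctrl replicates 1, 2 and 3. Ti replicate 2 was below 2 of the 3 Ctrl libraries, and the libraries of each group differed from each other about as much as the groups did. The log2 fold change was 0.38 ± 0.31 (edgeR adjusted p = 0.913), and 0.12 on protein-coding transcripts alone. The retained-intron transcript Cd44-209 was at 753.44, 527.71 and 1478.09 rescaled counts with Ti and at 544.68, 358.42 and 540.67 in Ctrl.

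Cd44 is known for alternative splicing: the standard form skips all variant exons, and longer forms include some or all of them. In these files the standard form Cd44-203, with 9 exons, was listed at 0 in all 6 libraries. The 19-exon form Cd44-201, which has 10 more exons at that place, held 58.1%, 19.1% and 16.9% of the gene's counts in Ti replicates 1, 2 and 3, and 60.8%, 77.6% and 35.9% in Ctrl replicates 1, 2 and 3. The forms Cd44-202, Cd44-206 and Cd44-208 were each at or near 0 in some libraries and above 100 rescaled counts in at least 1 Ti library. The junction that marks the standard form joins exon 5 to the first constant exon after the variant ones, shown here with the last 20 bases of exon 5 in lower case and the first 20 bases of the next exon in capitals; the 2 edges lie at 102853015 and 102828610 on chromosome 2 of GRCm38, minus strand.
Cd44-203 junction: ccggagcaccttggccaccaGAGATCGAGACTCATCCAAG
Assembled transcripts without a gene or position, 37.8% to 51.2% of the deposited totals with Ti and 36.9% to 40.5% in Ctrl, could not be assigned to Cd44 or to any other member, so a zero here concerns the annotated transcript only.

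Per unit of length, with the deposited values divided by genomic span and scaled to a sum of 1000000 per library, Icam1 led the 10 genes at a mean level of 61.0 over the 6 libraries, with a range of 50.9 to 73.0 that met no other member. Cd44 (19.3) and Tnfsf9 (18.7) followed with overlapping ranges, and Tnfsf9 did not overlap Cd83. Below them Cd83 (4.52), Cd40 (3.64), Icosl (2.04), Cd80 (0.899), Cd274 (0.678), Cd86 (0.296) and Cd69 (0.108) each overlapped the next. This order is over both groups together: Cd83 averaged 3.90 with Ti and 5.14 in Ctrl, so Cd40 was the higher of the pair with Ti and the lower in Ctrl. On this scale Cd274 averaged 0.891 ± 0.0820 with Ti and 0.464 ± 0.0717 in Ctrl, and Cd40 averaged 5.24 ± 3.46 with Ti and 2.04 ± 1.07 in Ctrl (SD, n = 3 each).

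**Figure D3:**
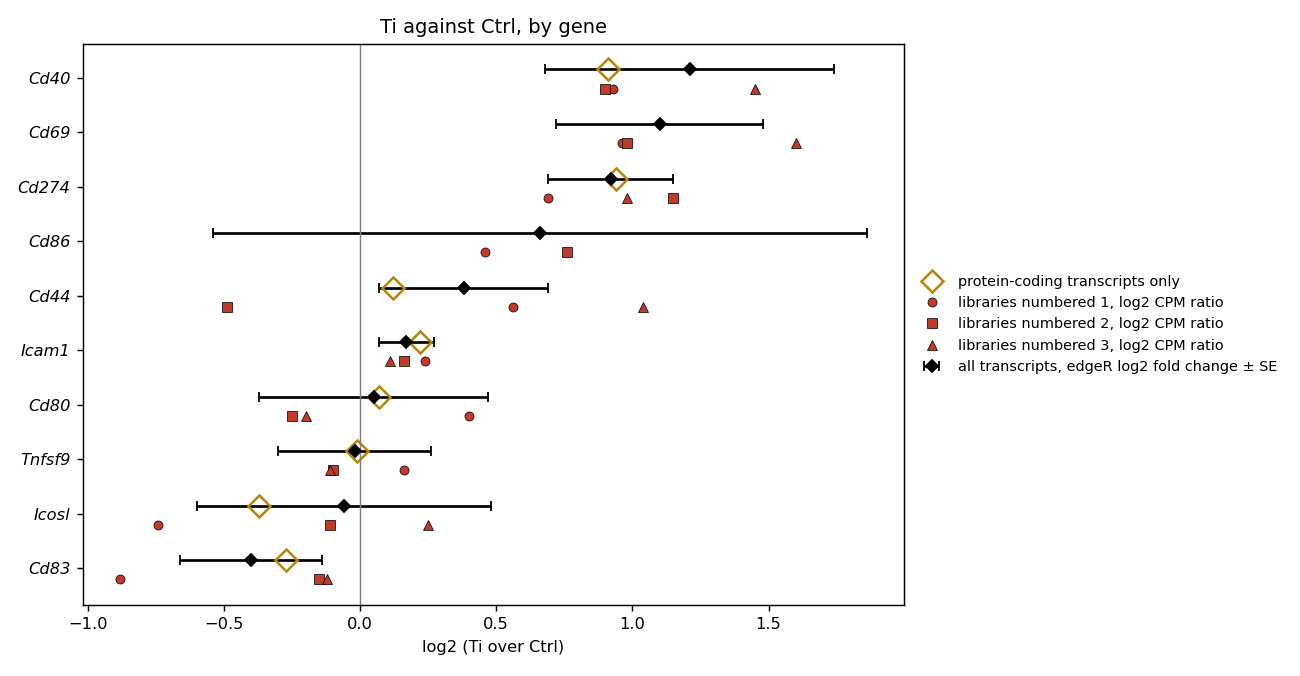
Log2 ratio of Ti over Ctrl for the 10 genes: black diamonds are the edgeR log2 fold change ± SE, open diamonds the value on protein-coding transcripts alone where it was tested, and small symbols the log2 CPM ratio of libraries of the same number. Cd274, Cd40 and Icam1 lie to the right of 0 by all these measures. Cd69 and Cd86 do so by the symbols drawn for them, though the SE bar of Cd86 crosses 0. The small symbols of Cd80, Icosl, Tnfsf9 and Cd44 fall on both sides.

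The receptors of these ligands were measured in the same cells. Of 9 receptor genes 6 were tested, 5 with positive and 1 with negative fold changes (median 0.23), and 0 passed an edgeR adjusted p of 0.05 over all genes. Tnfrsf9, among the positive ones, was at 0 in Ctrl replicates 1 and 2. It needed its Ti libraries to pass the low-count filter, so its direction is a description only. Pdcd1, which encodes PD-1, the receptor of PD-L1, had 43.6, 41.8 and 37.8 CPM in Ti replicates 1, 2 and 3, and 25.8, 26.3 and 26.5 CPM in Ctrl replicates 1, 2 and 3. The groups were well apart and the Ctrl libraries nearly equal. Its log2 fold change was 0.65 ± 0.11 (edgeR unadjusted p = 0.00115, adjusted p = 0.230), between 0.60 and 0.72 in the 16 alternatives; DESeq2, the tool with the larger share of false calls on simulated data, called it with an adjusted p of 1.27e-05, and no other alternative gave a call, with adjusted p up to 0.585.

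Icos, which encodes the receptor of ICOS ligand, had 0.665, 0.509 and 0.582 CPM in Ti replicates 1, 2 and 3, below the 0.922, 1.05 and 0.911 CPM of Ctrl replicates 1, 2 and 3, a log2 fold change of -0.71 ± 0.26 (edgeR unadjusted p = 0.0332, adjusted p = 0.686). Both Pdcd1 and Icos are best known from T cells, whose markers Cd3e, Cd3d, Cd3g, Cd4 and Cd8a were at 0 to 4 counts in every library. Tnfrsf9, which encodes the 4-1BB receptor, stood at 11, 10 and 127 counts in Ti replicates 1, 2 and 3, and at 0, 0 and 11 counts in Ctrl replicates 1, 2 and 3, so that Ti replicate 3 carried most of it; the log2 fold change of 3.64 ± 1.66 was 1.58 without that library, and without Ctrl replicate 3 the Ctrl group is at 0 and gives no fold. Itgb2, the shared beta chain of LFA-1 and Mac-1, had 244 to 248 CPM in the Ti libraries and 181 to 230 CPM in the Ctrl libraries, a log2 fold change of 0.27 ± 0.11 (edgeR adjusted p = 0.732). Ctla4 and Cd40lg were at 0 in all 6 libraries, and Cd28 was at 0 in all but 1, with 2 counts there.

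**Figure D4:**
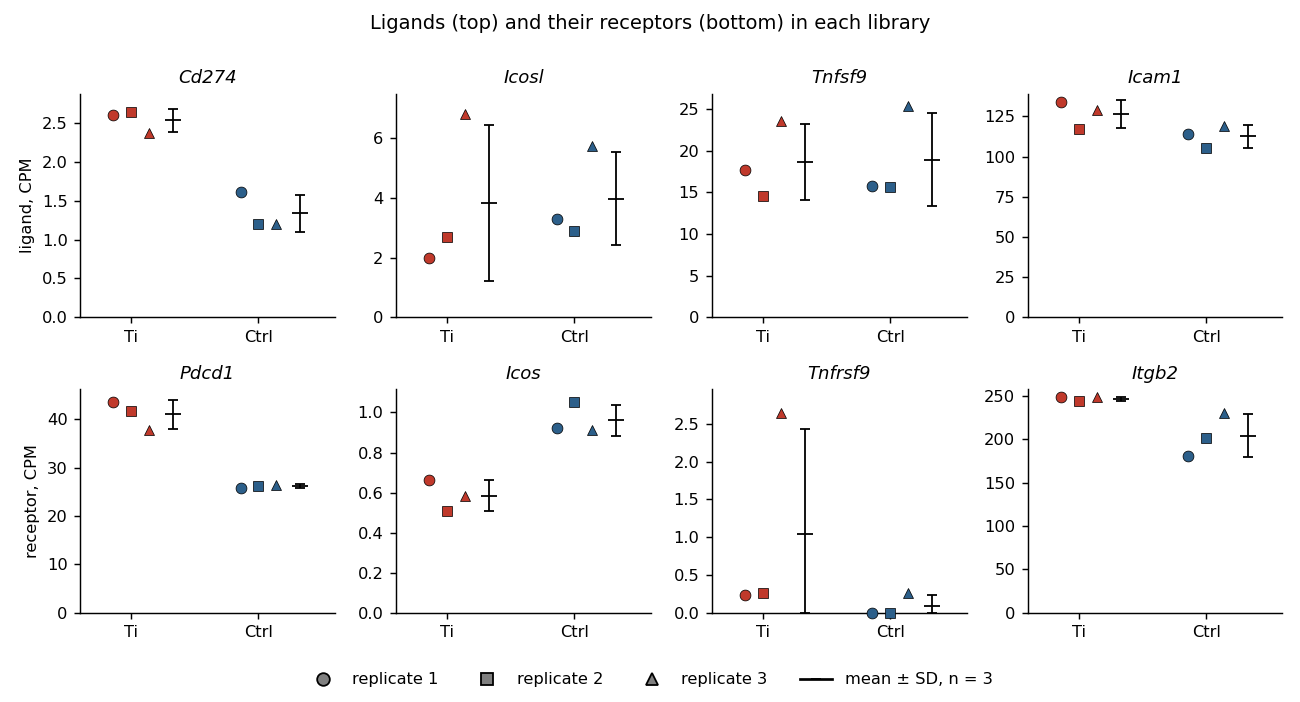
CPM in every library of 4 ligands (top row) and a receptor of each (bottom row), with Ti on the left of each panel; the bar is the mean ± SD (n = 3) and stops at 0. Cd274 and Pdcd1 both have all Ti libraries above all Ctrl libraries, and Icos has all Ti libraries below.

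Among 17 other costimulatory and coinhibitory genes 10 were tested, 3 with positive and 7 with negative fold changes (median -0.22), and 0 passed an edgeR adjusted p of 0.05. Tnfsf8, which encodes CD30 ligand, had 1.29, 1.10 and 1.31 CPM in the Ti libraries, all above the 0.813, 0.598 and 0.647 CPM of the Ctrl libraries (log2 fold change 0.84 ± 0.26, edgeR unadjusted p = 0.0178, adjusted p = 0.584). Vsir, which encodes the inhibitory ligand VISTA, was uneven, at 19.6, 9.16 and 4.47 CPM with Ti and 5.72, 40.3 and 47.9 CPM in Ctrl (log2 fold change -1.50 ± 0.86). Tnfrsf14, the receptor HVEM, had -0.59 ± 0.39 and Cd47, the don't-eat-me signal, -0.19 ± 0.13. Pdcd1lg2, which encodes the second PD-1 ligand, was at 0 in all 6 libraries, as were Vtcn1, Tnfsf4 and Cd70.

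All 14 genes of CD40 signalling were tested, 11 with positive and 3 with negative fold changes (median 0.18), and 0 passed. The 4 with the smallest p were Ikbkg, the regulatory subunit of the IkB kinase, at 0.77 ± 0.34, Nfkb2, the NF-kB subunit of the alternative pathway, at 0.29 ± 0.14, Traf5 at 0.49 ± 0.26 and Traf1 at 0.46 ± 0.27, the last 2 being adaptors of TNF receptors. On protein-coding transcripts alone Traf5 had 0.02, while Ikbkg, Nfkb2 and Traf1 had 0.81, 0.29 and 0.52. Traf1 was high in the libraries numbered 3 of both groups, at 65.2 CPM with Ti and 49.8 CPM in Ctrl, as Cd40 was. Of 9 genes for inducers of the members 6 were tested, 3 positive and 3 negative (median 0.07), with 0 past the adjustment. Rel, an NF-kB subunit, was 97.3 to 124 CPM with Ti and 68.4 to 82.9 CPM in Ctrl, a log2 fold change of 0.55 ± 0.13 (edgeR adjusted p = 0.425). Irf1, an interferon-induced activator, was 7.92, 8.17 and 9.09 CPM with Ti, with every Ctrl library above those, a log2 fold change of -0.80 ± 0.27 (edgeR adjusted p = 0.640). Nfkb1 had 0.16 ± 0.13 and Irf8 0.52 ± 0.64, and Ifng was at 0 in all libraries.

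Of 12 other adhesion genes 9 were tested, 3 with positive and 6 with negative fold changes (median -0.08), and 0 passed. Itga4, the alpha chain of VLA-4, had 226, 300 and 260 CPM in Ti replicates 1, 2 and 3, all below the 416, 409 and 347 CPM of Ctrl replicates 1, 2 and 3 (log2 fold change -0.58 ± 0.14, edgeR unadjusted p = 0.00525, adjusted p = 0.414). Itgax, the CD11c chain of a complement receptor, had 30.2 to 37.1 CPM with Ti and 6.47 to 20.1 CPM in Ctrl (1.12 ± 0.43), Itgav 0.50 ± 0.25 and Alcam 0.44 ± 0.29. Of 17 genes for CD44 partners and processing 13 were tested, 5 positive and 8 negative (median -0.02), and 0 passed. Spp1, which encodes osteopontin, a ligand of CD44, had 3032, 3409 and 6096 CPM with Ti and 1316, 1379 and 3539 CPM in Ctrl, overlapping through Ctrl replicate 3 (1.01 ± 0.48, and 0.64 without Ti replicate 3 and 1.64 without Ctrl replicate 3). Libraries of the same number differed by 1.20, 1.31 and 0.78 on the log2 scale for numbers 1, 2 and 3, and the edgeR fit blocked on number gave an unadjusted p of 0.00128 (adjusted p = 0.317), against 0.0779 without the block. The membrane linkers ezrin (Ezr) and moesin (Msn) had -0.28 ± 0.16 and 0.19 ± 0.12, and Esrp2, a splicing regulator of variant CD44 exons in epithelia, was at 0.214 to 0.395 CPM with Ti and 0.264 to 0.672 CPM in Ctrl (-0.56 ± 0.46), while Esrp1 was at 0 in every library.

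The genes whose pattern over the 6 libraries was most like that of Cd274, by Pearson's r of log2 CPM among 9718 genes with a mean of at least 5 CPM, were Pcmtd2 (r = 0.9898), Sms (r = 0.9876) and Cd63 (r = 0.9851). Sms, the spermine synthase gene, had 79.7, 77.9 and 70.1 CPM with Ti and 57.9, 50.3 and 52.9 CPM in Ctrl, and Cd63, which encodes a lysosomal tetraspanin, had 96.2, 93.1 and 86.0 CPM with Ti and 69.0, 64.5 and 60.1 CPM in Ctrl. For Icam1 they were Eid3 (r = 0.9916), Ccdc22 (r = 0.9858) and Maff (r = 0.9853). With 6 libraries that share the same treatment groups, r of this size among so many genes is a description only.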

How the data were processed

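The authors deposited whole-number estimated counts per transcript, 187351 rows for each library. HISAT2, StringTie and the build mm9 are listed per the submitters' processing notes; the sources used here do not name the counting tool. GENCODE M21 transcripts (GRCm38) match 141862 of the rows, which gave names and coordinates; the other 45489 are assembled transcripts and were left out. Deposited values grew with genomic span: in 8 bins of the ratio of span to exon length, the 25th percentile of values above 0 ran from 4 in the lowest bin to 172 in the highest. Each value was therefore multiplied by exon length over span, summed per gene and rounded; the correction is approximate, and rescaled counts are not reads.

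The test was the quasi-likelihood one of edgeR 4.0.16 (TMM, filterByExpr, Benjamini-Hochberg over 15376 genes) in R 4.3.3. The standard error is the log2 fold change over the square root of F. DESeq2 1.42.0 and limma 3.58.1 (voom) were alternatives, and the tests were checked on simulated data. Python 3.11.15, pandas 2.3.3 and matplotlib 3.10.9 served for tables and figures. No pair of libraries within a group agreed within sampling noise. Ti and Ctrl libraries of one number deviated weakly alike from their group means across genes. The correlations were 0.109, 0.137 and 0.247 for equal numbers, against -0.150 to 0.0276 for other pairs. Deviations from a mean of 3 libraries are not independent of each other, so these correlations cannot establish a pairing. The labels state none. The reported fit has no block, and blocked p-values are given above for Cd40 and Spp1 only. The block moved the edgeR unadjusted p of other named genes both ways. It fell from 0.136 to 0.00983 for Traf1 and from 0.0893 to 0.014 for Itgav. It rose from 0.0651 to 0.164 for Ikbkg and from 0.00738 to 0.0128 for Cd274. Named besides the members are up to 4 genes per list with the smallest p, genes at 0 or low where a list is described, and markers. The members, the lists and some alternatives were chosen with earlier results of these data known; the protein-coding alternative was added after the values were seen.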

Additional observations from a re-analysis of the deposited data

How the results depend on the processing

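Of the 10 members, 0 passed in either direction in edgeR under every alternative and in voom; DESeq2's test called 1 higher (Cd274). Over all genes edgeR called 2 higher and 2 lower. The calls were 163 higher and 129 lower by DESeq2's test, 5 and 5 by voom, 1 lower with no filter on low counts, 1 and 1 on protein-coding transcripts alone, 0 and 0 without both libraries numbered 3, and 1 to 8 higher and 0 to 7 lower with 1 library left out. With the replicate number as a block they were 0 and 0, and the block changed no call of a member. The median fold change of all 10 members was 0.28, and 0.17 without Cd69, which entered the test through its Ti libraries alone. Cd69 and Cd86 also dropped out with a mean of at least 50 counts (median 0.12, 8 members left). The same 2 dropped out on protein-coding transcripts alone (median 0.10, 8 left). For all 10 the median was 0.42 with unrescaled values and 0.17 without both libraries numbered 3. With 1 library left out it was 0.18 (without Ti replicate 2) to 0.34. With 1 library left out, Cd80 ranged from -0.39 to 0.31, Icosl from -0.77 to 0.31, Tnfsf9 from -0.23 to 0.25, Cd86 from -0.07 to 1.25 and Irf8 from -0.31 to 0.90. Cd80 was -0.01 with the block and -0.23 with unrescaled values, Tnfsf9 0.07 by voom and 0.04 without both libraries numbered 3, and Nfkb1 -0.44 on protein-coding transcripts alone and -0.02 with unrescaled values. The cause was not tested. Depth limits Cd86 and Cd69, which are near the lowest detectable count.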
